A study of Mus musculus with 6 samples.

Results

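The genes described here are the metallothioneins Mt1 and Mt2, their transcriptional activator Mtf1, and the zinc transporters Slc30a1, Slc39a14 and Slc39a1. These 6 genes were taken by symbol from a count table of 46095 genes, and all 6 had enough reads to be among the 13215 genes tested. RNA was sequenced from macrophages grown from the bone marrow of C57BL/6 mice at 56 days of age, either wild type (WT) or Cd226-/-, that is, lacking the activating adhesion receptor CD226. Both genotypes received the same treatment: 7 days in M-CSF at 20 ng/ml, which drives marrow cells to become macrophages, and then 24 h of IFN-γ at 20 ng/ml with LPS at 100 ng/ml, the stimulus for M1-type macrophages. Each genotype was sequenced in 3 libraries, all of them stimulated. Since the labels name no separate animal or culture for each library, the p-values reflect only how far these libraries spread, which may be technical.

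Metallothioneins are small cysteine-rich proteins that bind zinc and copper and buffer the free metal inside the cell. When free zinc rises, the zinc-finger factor MTF-1 binds short metal response elements in the promoters of Mt1, Mt2 and Slc30a1 and raises their transcription. Transporters of the Slc30 family (ZnT) move zinc out of the cytosol, either out of the cell or into organelles, and those of the Slc39 family (ZIP) move it into the cytosol. Macrophages are known to shift zinc between these compartments during inflammatory activation.

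The promoters of Mt1 and Mt2 are shown because both genes moved together between the genotypes and because the metal response element is the best-known feature of this gene pair. Each window runs from 250 bases before to 50 bases after the RefSeq start site, on the plus strand of GRCm38.p6, at chr8:94178839-94179138 for Mt1 and chr8:94172368-94172667 for Mt2. Capitals mark the core of the metal response element, searched as TGCACNC or TGCGCNC on both strands.

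Mt1: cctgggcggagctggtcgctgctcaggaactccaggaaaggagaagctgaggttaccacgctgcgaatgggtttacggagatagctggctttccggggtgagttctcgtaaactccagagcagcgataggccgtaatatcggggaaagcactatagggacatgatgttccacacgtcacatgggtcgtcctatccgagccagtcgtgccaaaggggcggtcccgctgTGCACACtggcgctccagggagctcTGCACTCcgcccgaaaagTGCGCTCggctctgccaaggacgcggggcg

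Mt2: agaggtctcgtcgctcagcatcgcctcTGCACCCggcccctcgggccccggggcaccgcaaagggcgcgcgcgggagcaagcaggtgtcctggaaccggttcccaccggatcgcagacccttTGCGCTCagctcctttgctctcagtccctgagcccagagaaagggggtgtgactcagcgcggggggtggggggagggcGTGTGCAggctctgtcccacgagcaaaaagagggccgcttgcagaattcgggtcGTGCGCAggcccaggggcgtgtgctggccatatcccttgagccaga

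The Mt1 window held 3 such cores, whose leftmost bases lie at -23, 3 and 21 relative to the start site (the start base is 1). The Mt2 window held 4, at -223, -128, -50 and 5, of which the last 2 were on the minus strand. Of 32851 RefSeq promoter windows of this length, 25.7% held at least 1 core, 1.97% at least 3 and 0.517% at least 4. The Slc30a1 window held 2 cores, as did 7.11% of windows with at least 2, and the windows of Mtf1 and Slc39a1 held none of these letters. An antioxidant element core, searched as TGACNNNGC on both strands, lay at -79 in Mt2, at -82 in Slc30a1 and at -63 in Slc39a1, and 12.4% of all windows held at least 1. The GC box GGGCGG occurred 3 times in Mt1, 5 times in Slc30a1, 1 time each in Mtf1 and Slc39a1 and not in Mt2, against 35.7% of all windows with at least 1; the GC box at 9 in Mt1 shares a base with the core at 3. The E-box CACGTG was in none of the 5 windows, and 7.15% of all windows held it. Annotated start sites differ. The principal GENCODE transcript begins 46 bases after the RefSeq start used here for Mt2 and 7 bases before it for Mt1. Other models of Mt1 begin 122 and 152 bases after the RefSeq start. The windows end 50 bases after the RefSeq start, so sequence between there and the later Mt1 starts was not searched. The motif counts hold for these windows only. The RefSeq span of the Mt1 gene itself begins at 94178883, before the start site 94179089 used here and inside the window. A match is a string of letters and was not tested as a binding site.

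Total counts were 16838527 to 21658061 per library in WT and 16925955 to 18867799 in Cd226-/-, so that 1 count was worth 0.0452 to 0.0600 CPM (counts scaled to the TMM-adjusted library size). Cd226 itself, the targeted gene, was read 5, 17 and 23 times in the WT libraries and 11, 10 and 8 times in the Cd226-/- libraries and did not pass the test (adjusted p = 0.480, edgeR), so these counts do not check the labels. A principal component analysis placed the genotypes apart on its first axis (54.4% of variance), and its second axis (15.5%) set Cd226-/- replicate 1 apart from replicates 2 and 3. Of 8 macrophage markers all were tested, 4 were higher in Cd226-/- (Adgre1, Cd68, Mertk and Fcgr1), 3 were lower (Csf1r, Itgam and Cd14) and Lyz2 did not pass, with a summed level of 17932 to 19895 CPM in WT and 19212 to 20005 CPM in Cd226-/-. All 6 B-cell markers were higher in Cd226-/- (summed 17.2 to 20.0 CPM in WT and 41.5 to 52.4 CPM in Cd226-/-), as were 6 of 7 tested fibroblast or stromal markers (500 to 581 CPM and 783 to 817 CPM). Of the neutrophil markers 1 of 3 tested was higher, of the dendritic cell markers 1 of 3, of the T or NK cell markers 0 of 5. Of the mast cell or basophil markers 1 of 3 was higher and 1 lower, and no erythroid marker had enough reads to be tested. These marker counts stand beside 16.1% of all tested genes higher and 14.8% lower. Of 10 hepatocyte markers only Trf had enough reads to be tested, and it did not pass. The list's summed level was 215 to 224 CPM in WT and 245 to 252 CPM in Cd226-/-. Most of that sum was Trf, at 214.4 to 224 CPM in WT and 223.7 to 244.5 CPM in Cd226-/-. Alb, Apoa1, Fga, Fgb, Ahsg and Serpina1a were at 0 in the WT libraries and in Cd226-/- replicate 1, whereas Alb was read 266 and 279 times in Cd226-/- replicates 2 and 3. In such bulk samples fewer cells of a type and less RNA per cell cannot be told apart.

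Of the 6 genes, 3 fell in Cd226-/- macrophages (Mt1, Mt2 and Mtf1), none rose and 3 did not pass (the threshold was a Benjamini-Hochberg adjusted p of 0.05, from the quasi-likelihood test of edgeR). The metallothioneins changed most: their summed level fell from 262 ± 11.9 CPM in WT to 145 ± 14.7 CPM in Cd226-/- (SD, n = 3), a 1.82-fold difference. Slc30a1, the zinc exporter that MTF-1 also activates, averaged 78.9 ± 5.93 CPM in WT against 82.0 ± 8.90 CPM in Cd226-/- (SD, n = 3) and did not pass. Over all tested genes, 30.9% passed in either direction, 16.1% higher and 14.8% lower, so 3 of 6 lower stands against a background of 14.8%. With libraries scaled by total count alone, 1773 genes were higher and 2764 lower, in place of 2130 and 1956. Normalized levels did not overlap between the genotypes for 4 of the 6 genes, compared with 44.3% of all tested genes. The median log2 fold change of the 6 was -0.21, and that of all tested genes was -0.0045.

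**Figure D1:**
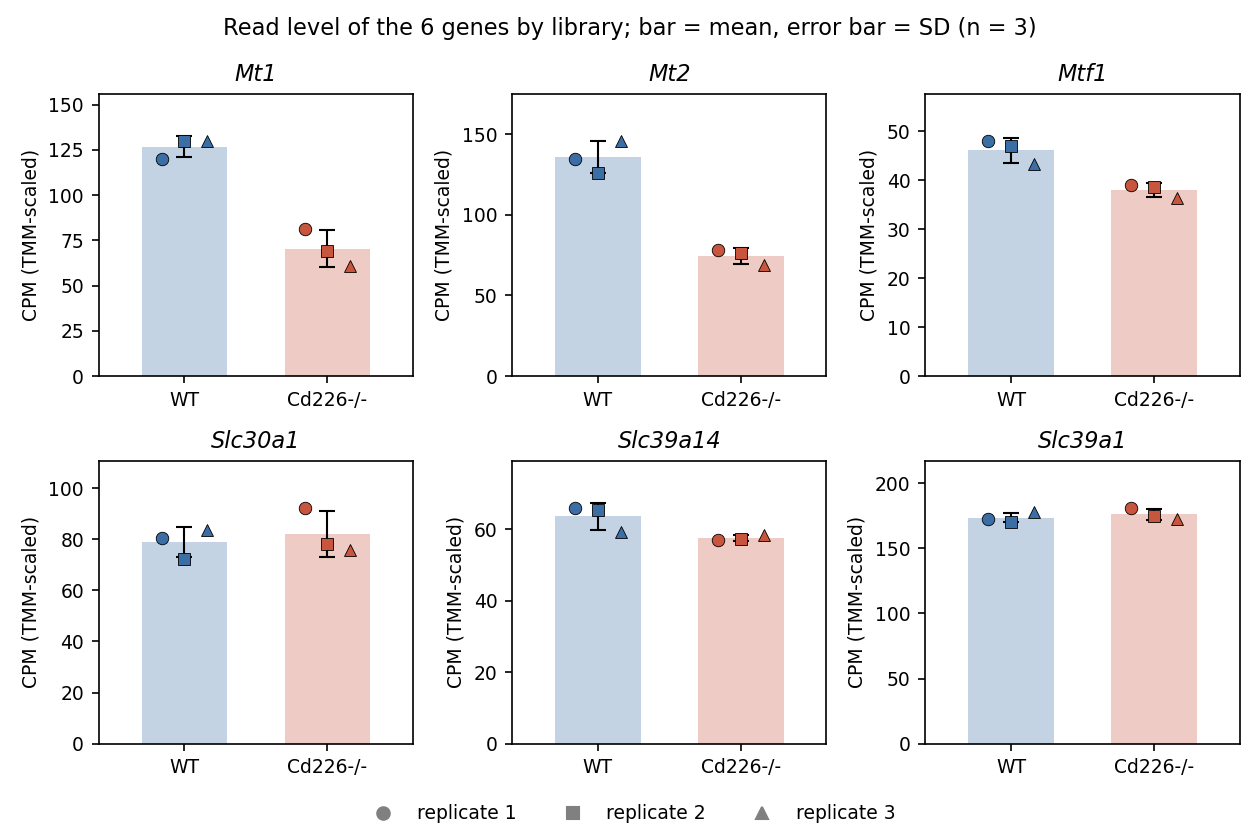
TMM-scaled CPM of each of the 6 genes in every library (symbols mark the replicate number), with the group mean as a bar and the SD as an error bar. For Mt1, Mt2, Mtf1 and Slc39a14 the 3 Cd226-/- libraries lie below the 3 WT libraries, while the Slc30a1 and Slc39a1 values overlap.

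Mt1 (ENSMUSG00000031765.8, chromosome 8, 94178883 to 94180327, plus strand, GRCm38) encodes metallothionein 1. In order of replicate number, the WT libraries held 2191, 2225 and 2877 reads of Mt1 and the Cd226-/- libraries 1471, 1156 and 1119. On the CPM scale these were levels of 120, 130.0 and 130.1 in WT and 81.1, 69.3 and 61.0 in Cd226-/-. Every Cd226-/- library lay below every WT library, and Cd226-/- replicate 1 was the highest of its group. Mt1 fell with a log2 fold change of -0.85 ± 0.085 (SE, edgeR adjusted p = 9.95e-06). Without Cd226-/- replicate 1 the log2 fold change of Mt1 was -0.96, and with that replicate as the only Cd226-/- library it was -0.64. Of the 13215 tested genes, 328 had a lower log2 fold change than Mt1.

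Mt2 (ENSMUSG00000031762.7, chromosome 8, 94172618 to 94173567, plus strand, GRCm38) encodes metallothionein 2, the second of the pair that most tissues express. The WT libraries held 2461, 2158 and 3228 Mt2 reads, and the Cd226-/- libraries held 1417, 1274 and 1263. The levels were 135, 126 and 146 CPM in WT and 78.1, 76.4 and 68.8 CPM in Cd226-/-. Here too the groups did not overlap, and the 3 Cd226-/- libraries lay close together. Mt2 fell with a log2 fold change of -0.87 ± 0.062 (SE, edgeR adjusted p = 9.94e-10), and 312 tested genes had a lower value. With replicate 1 as the only Cd226-/- library the log2 fold change of Mt2 was -0.79.

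The 2 genes kept nearly the same proportion. The ratio of Mt2 to Mt1 counts was 1.12, 0.970 and 1.12 in WT and 0.963, 1.10 and 1.13 in Cd226-/-. The means were 1.07 ± 0.088 and 1.07 ± 0.089 (SD, n = 3), and the ratio did not separate the genotypes (exact two-sided permutation test, p = 0.7). Together Mt1 and Mt2 took 0.0267% ± 0.0013 of all counts in WT and 0.0142% ± 0.0012 in Cd226-/- (SD, n = 3). The summed level differed with p = 0.1 in the exact two-sided permutation test, the smallest value that 3 libraries against 3 allow. No stretch of 50 bases of the principal Mt1 transcript occurs in a transcript of any other gene, Mt2 included, so reads of that length would tell the pair apart. For Mt2, 45.5% of such stretches lie in Gm45774, an antisense gene model that overlaps it and has no row in the table; reads of both would be counted as Mt2 if strand was not used.

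Mtf1 (ENSMUSG00000028890.13, chromosome 4, 124802549 to 124849800, plus strand, GRCm38) encodes MTF-1, the zinc sensor that activates the metallothionein genes. Mtf1 reads numbered 878, 805 and 956 in the WT libraries against 709, 643 and 668 in the Cd226-/- libraries. The levels were 48.1, 47.0 and 43.2 CPM in WT and 39.1, 38.6 and 36.4 CPM in Cd226-/-, again without overlap. Mtf1 fell with a log2 fold change of -0.28 ± 0.069 (SE, edgeR adjusted p = 0.00393), a smaller change than that of the metallothioneins. With replicate 1 as the only Cd226-/- library Mtf1 missed the threshold, at -0.23 on the log2 scale (adjusted p = 0.107). The counts of Mt1 and Mt2 together were 5.30, 5.45 and 6.39 times those of Mtf1 in WT. In Cd226-/- they were 4.07, 3.78 and 3.57 times those of Mtf1, without overlap (log2 difference -0.58, exact permutation p = 0.1, the smallest possible). This ratio was chosen after the values were seen, so its separation is a description only. Mtf1 overlaps 1110065P20Rik on the other strand, with which its principal transcript shares 8.86% of its 50-base stretches. The level of 1110065P20Rik averaged 7.90 ± 0.731 CPM in WT against 8.94 ± 0.988 CPM in Cd226-/- (SD, n = 3), and it did not pass (edgeR adjusted p = 0.370).

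Slc30a1 (ENSMUSG00000037434.7, chromosome 1, 191906697 to 191913248, plus strand, GRCm38) encodes ZnT1, which exports zinc across the plasma membrane. Slc30a1 was read 1471, 1237 and 1852 times in the WT libraries and 1672, 1303 and 1389 times in the Cd226-/- libraries. The levels were 80.6, 72.3 and 83.8 CPM in WT and 92.2, 78.1 and 75.7 CPM in Cd226-/-, with Cd226-/- replicate 1 the highest of the 6 and the other Cd226-/- libraries inside the WT range. The log2 fold change of Slc30a1 was 0.054 ± 0.074 (SE, edgeR adjusted p = 0.616), with a 95% interval of -0.091 to 0.20. Its value was -0.041 without Cd226-/- replicate 1, and with that replicate as the only Cd226-/- library Slc30a1 was 0.23 higher on the log2 scale (adjusted p = 0.0330). The ratio of Mt1 and Mt2 counts to Slc30a1 counts, which does not depend on scaling, was 3.16, 3.54 and 3.30 in WT and 1.73, 1.87 and 1.72 in Cd226-/-. These ratios did not overlap and differed 1.88-fold (exact permutation p = 0.1, the smallest possible). Both ratios, to Mtf1 and to Slc30a1, were chosen after the values were seen. Slc30a1 overlaps 1700034H15Rik on the other strand, with which its principal transcript shares 8.08% of its 50-base stretches. The level of 1700034H15Rik averaged 0.72 ± 0.39 CPM in WT against 0.77 ± 0.43 CPM in Cd226-/- (SD, n = 3), and it did not pass (edgeR adjusted p = 0.899).

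Slc39a14 (ENSMUSG00000022094.15, chromosome 14, 70303467 to 70351452, minus strand, GRCm38) encodes ZIP14, an importer of zinc that also carries iron and manganese. Reads of Slc39a14 numbered 1203, 1120 and 1312 in the WT libraries against 1033, 955 and 1073 in the Cd226-/- libraries. The levels were 65.9, 65.4 and 59.3 CPM in WT and 56.9, 57.3 and 58.5 CPM in Cd226-/-. The groups did not overlap, by a narrow margin between WT replicate 3 and Cd226-/- replicate 3, and Slc39a14 missed the threshold, with a log2 fold change of -0.14 ± 0.061 (SE, edgeR adjusted p = 0.0828). It passed when WT replicate 3 was left out (log2 fold change -0.19, adjusted p = 0.0367) and under scaling to the library total (-0.20, adjusted p = 0.0176).

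Slc39a1 (ENSMUSG00000052310.9, chromosome 3, 90248190 to 90253613, plus strand, GRCm38) encodes ZIP1, a broadly expressed zinc importer of the cell surface. The WT libraries held 3151, 2914 and 3928 Slc39a1 reads and the Cd226-/- libraries 3280, 2913 and 3171. The levels were 173, 170.3 and 178 CPM in WT and 181, 175 and 173 CPM in Cd226-/-, overlapping in part: WT replicate 2 was the lowest of the 6 and Cd226-/- replicate 1 the highest. The log2 fold change of Slc39a1 was 0.020 ± 0.049 (SE, edgeR adjusted p = 0.783), with a 95% interval of -0.075 to 0.12. A pseudogene, Slc39a1-ps, shares 21.8% of its 50-base stretches and had 13 to 36 counts per library.

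**Figure D2:**
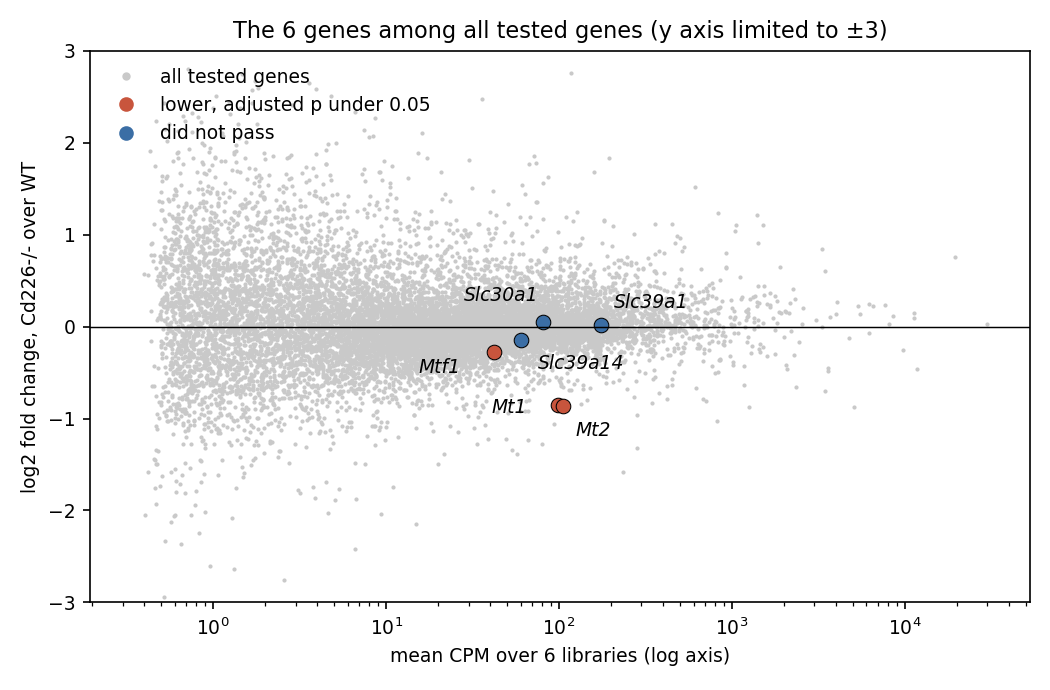
Log2 fold change (Cd226-/- over WT) against mean CPM over the 6 libraries (log axis) for all 13215 tested genes, with the y axis limited to 3 in either direction. Mt1 (-0.85) and Mt2 (-0.87) lie side by side, Mtf1 (-0.28) lies between them and 0, and the 3 transporters lie nearest to 0, from -0.14 to 0.054.

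Levels between genes were compared only per kilobase of the principal transcript. In WT the order was Mt2 (266 ± 19.5 CPM per kb), Mt1 (231 ± 10.5), Slc39a1 (73.41 ± 1.598), Slc30a1 (15.04 ± 1.13), Slc39a14 (12.9 ± 0.744) and Mtf1 (6.04 ± 0.335; SD, n = 3). The levels of Slc30a1 and Slc39a14, neighbours in this order, did not overlap in either genotype. In Cd226-/- the order was the same, with 146 ± 9.69 CPM per kb for Mt2, 128 ± 18.4 for Mt1 and 74.5 ± 1.78 for Slc39a1 (SD, n = 3). Mt1 and Mt2 overlapped in Cd226-/- on the per-kilobase scale (111 to 148 and 135 to 153 CPM per kb) and not in WT (219 to 237 and 247 to 286 CPM per kb). The principal transcripts of the pair are short, at 549 and 511 bases, and their levels per kilobase depend on which annotated start is used.

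The metallothionein cluster holds further members. Mt3, first described in brain, was read 129, 119 and 153 times in the WT libraries and 70, 90 and 68 times in the Cd226-/- libraries. Mt3 fell from 6.98 ± 0.078 to 4.32 ± 0.935 CPM (SD, n = 3; log2 fold change -0.70 ± 0.18 (SE), edgeR adjusted p = 0.00422), without overlap between the genotypes. Mt4, a metallothionein of stratified epithelia, was at 0 in all 6 libraries, which allows up to 3 counts in each (0.136 to 0.180 CPM). All 3 tested metallothionein genes therefore fell. Among the other protein-coding genes that begin from 200 kb before to 300 kb after Mt1, Nup93, a nuclear pore gene, fell (log2 fold change -0.35, adjusted p = 4.91e-04), as did Bbs2, a cilium gene (-0.56, adjusted p = 0.0232). Herpud1, of endoplasmic reticulum stress, rose 2.06-fold and Nlrc5, the class I transactivator, rose 1.21-fold. Nudt21 and Ogfod1 did not pass (edgeR adjusted p = 0.491 and 0.363). The genes around the cluster were named for their position, and the bounds of this window were set after their values were seen.

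**Figure D3:**
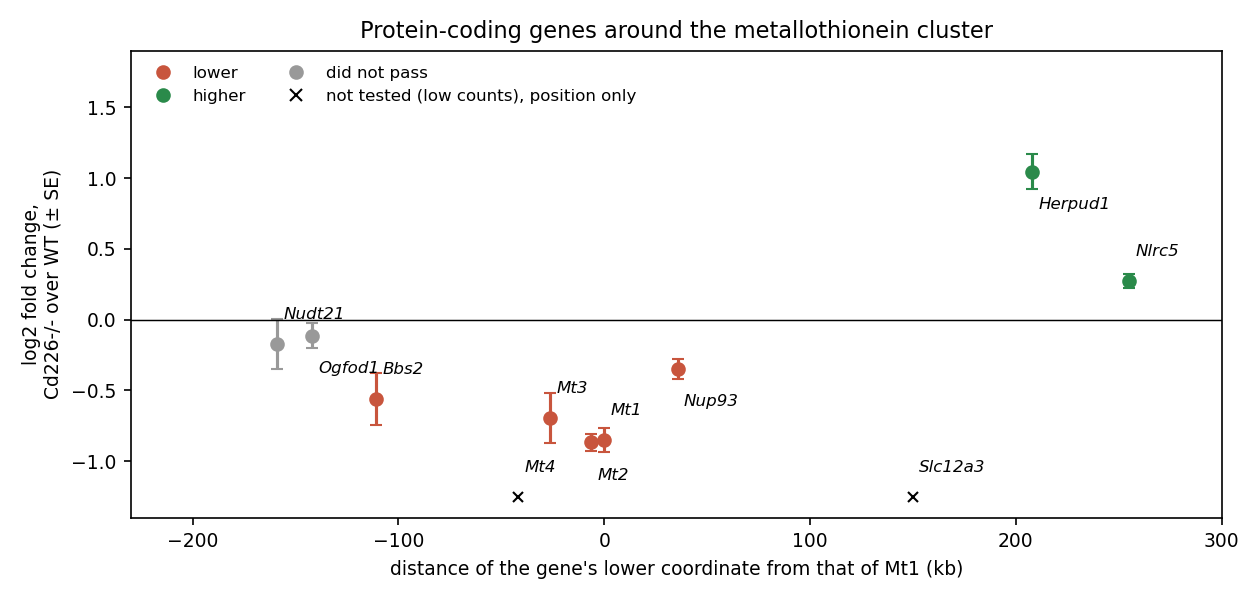
Log2 fold change (± SE) of the protein-coding genes near Mt1 against the distance of their lower coordinate from that of Mt1, in kb; red points passed as lower, green as higher, grey did not pass, and crosses mark genes with too few counts to test. The 3 metallothioneins lie together at -0.70 to -0.87, with Nup93 and Bbs2 also below 0 and Herpud1 above it.

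The wider zinc transporter families were described in the same way. Of 14 Slc39 importer genes 11 were tested, 6 fell and 0 rose, beside 14.8% of all tested genes lower and 16.1% higher, and their median log2 fold change was -0.29. Slc39a3, a cell-surface importer, fell from 28.4 ± 0.634 to 20.1 ± 1.87 CPM (SD, n = 3; log2 fold change -0.50, edgeR adjusted p = 1.61e-04). Slc39a11 and Slc39a13, importers of internal membranes, had log2 fold changes of -0.47 (adjusted p = 5.40e-04) and -0.45 (adjusted p = 0.00187). Slc39a6, linked to cell adhesion and migration, fell by 0.29 on the log2 scale (adjusted p = 0.00144), and Slc39a10, an importer that MTF-1 is known to repress, by 0.27 (adjusted p = 0.0315). Slc39a8, which encodes ZIP8 and is known to be induced by inflammatory stimuli, fell from 38, 18 and 31 counts to 18, 10 and 8 (log2 fold change -1.15 ± 0.41 (SE), adjusted p = 0.0365). Slc39a10 lost its call without WT replicate 1 or 2 or Cd226-/- replicate 2 or 3 (adjusted p = 0.166, 0.0560, 0.0606 and 0.0935), and Slc39a8 without WT replicate 1 or 3 or Cd226-/- replicate 2 or 3 (adjusted p = 0.193, 0.0748, 0.113 and 0.162). Neither passed in the DESeq2 Wald test (adjusted p = 0.0652 and 0.0621).

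Slc39a7, which encodes ZIP7 and releases zinc from the endoplasmic reticulum, was read 124, 122 and 11 times in the WT libraries and 17, 30 and 26 times in the Cd226-/- libraries and did not pass (edgeR adjusted p = 0.293). WT replicate 3 was the lowest of all 6 and the other WT libraries the highest, so the WT libraries spanned the whole range. With replicate 1 as the only Cd226-/- library, 2 Slc39 genes passed as lower in place of 6, while 7 did without that replicate and 9 did under scaling to the library total.

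Of 10 Slc30 genes 6 were tested, 1 fell and 0 rose, a share near the 14.8% of all tested genes that fell, and the median log2 fold change was -0.041. The gene that fell was Slc30a4, which encodes ZnT4 of vesicle membranes, read 365, 325 and 359 times in the WT libraries and 253, 212 and 246 times in the Cd226-/- libraries (log2 fold change -0.46 ± 0.11 (SE), edgeR adjusted p = 0.00222). It missed the threshold with replicate 1 as the only Cd226-/- library (adjusted p = 0.0696). Slc30a5, Slc30a6 and Slc30a7, transporters of the secretory pathway, had log2 fold changes of 0.084, -0.16 and -0.098, and Slc30a9, linked to mitochondria, 0.016; none of these passed. Slc30a8 and Slc30a10 were at 0 in every library. Whether the 2 families differ from each other was not tested. The summed level of the 14 Slc39 genes was 486 to 506 CPM in WT and 439 to 452 CPM in Cd226-/-, without overlap. That of the 10 Slc30 genes was 312 to 331 CPM and 309 to 329 CPM, with overlap.

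**Figure D4:**
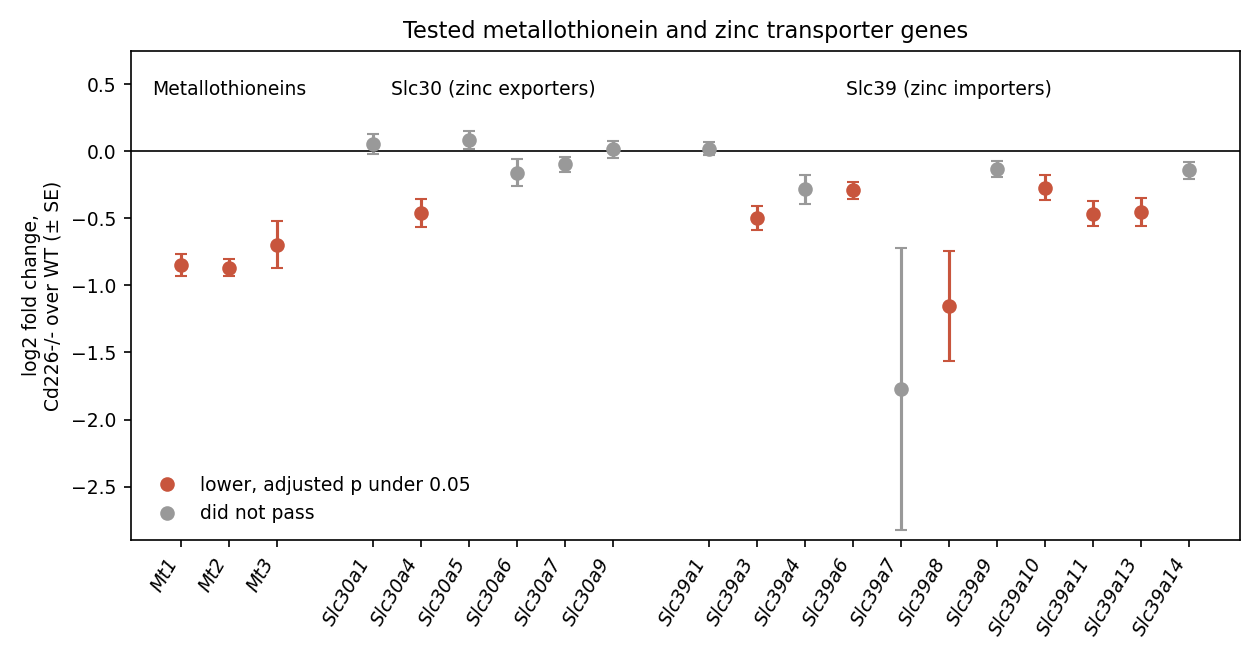
Log2 fold change (± SE, Cd226-/- over WT) of each tested metallothionein, Slc30 and Slc39 gene; red points passed as lower and grey points did not pass. The metallothioneins and 6 of 11 Slc39 genes passed as lower, as did 1 of 6 Slc30 genes; whether the families differ was not tested, and Slc39a7 has the widest error.

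Other genes known as targets of MTF-1 or responsive to metals split, where 14.8% of all tested genes fell and 16.1% rose. Of 8, 5 were tested: Gclc, of glutathione synthesis, and Hmox1, the heme oxygenase, fell (log2 fold changes -0.59 and -0.87), while Csrp1, a LIM-domain gene, rose 1.65-fold, Selenow (Sepw1 in the table), a selenoprotein, 1.27-fold and Ndrg1, known also as a hypoxia gene, 2.03-fold. The edgeR adjusted p of these 5 ranged from 1.50e-09 (Hmox1) to 0.00452 (Ndrg1). Gclc and Hmox1 belong also to the targets of NRF2, the regulator of the oxidative stress response, of which 14 of 18 fell and 0 rose, with a median log2 fold change of -0.56, where 14.8% of all tested genes fell and 16.1% rose. The lowest p among these were those of Gclm (-0.83), Txnrd1 (-0.67) and Hmox1 (-0.87). The NRF2 targets that fell ranged from -1.10 (Gsta3) to -0.19 (G6pdx) on the log2 scale. Osgin1, Txn1, Ftl1 and Fth1 did not pass. All gene lists here were chosen with earlier results of these data known, so their shares are a description.

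Among genes that handle copper, a metal the metallothioneins also bind, 13 were tested, of which 4 rose and 1 fell, with a median log2 fold change of 0.13, where 16.1% of all tested genes rose and 14.8% fell. With offsets for GC content and length 3 copper genes fell. Cox17, a copper chaperone of mitochondria, rose 1.44-fold, and Cp, the copper-carrying oxidase ceruloplasmin, 1.45-fold. The copper importer Slc31a1 rose 1.17-fold and Slc31a2, of the same family, 1.14-fold. The reductase gene Steap3 fell by 0.46 on the log2 scale. The exporter Atp7a had a log2 fold change of -0.0054 (edgeR adjusted p = 0.951). Among transporters that share substrates with ZIP14, 3 of 5 tested fell and 0 rose, beside 14.8% of all tested genes lower. Those that fell were the iron exporter Slc40a1 (log2 fold change -2.03), the transferrin receptor Tfrc (-0.57) and Slc39a8. As given above, the call of Slc39a8 did not hold in the DESeq2 Wald test or without some of the libraries. Of 4 tested S100 genes, which encode calcium-binding proteins several of which bind zinc, S100a6 and S100a4 fell (-0.28 and -0.26) and S100a1 rose 1.23-fold. Glucocorticoids are known inducers of metallothioneins. Of 6 tested glucocorticoid-responsive genes Tsc22d3 and Per1 rose (1.22-fold and 1.26-fold) and Klf9 fell (log2 fold change -0.43). The S100 and glucocorticoid lists also stand beside 14.8% of all tested genes lower and 16.1% higher.

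The genes most like the metallothioneins in level across the 6 libraries were found by Pearson's r of log2 CPM among 8972 tested genes that averaged 5 CPM or more, leaving out Gm, Rik, pseudogene and accession names; since the 2 genotypes form 2 clusters, this likeness mostly follows the genotype difference and is a description. For Mt1 they were Cds2, Cyb5a, Prdx6, Fbf1 and Fam65a (r from 0.998 down to 0.996). For Mt2 they were Pitpna, Rras2, Sqstm1, Prdx1 and Cpt1a (0.999 to 0.997). Mt2 ranked 157 in likeness to Mt1 (0.975) and Mtf1 ranked 631 (0.923). Slc30a1 and Slc39a1 were not like Mt1 on this measure (-0.039 and -0.16). Rras2, a small GTPase, fell by 0.85 on the log2 scale, from 20.1, 19.6 and 22.6 CPM in WT to 12.2, 11.6 and 10.8 CPM in Cd226-/-. The peroxidase genes Prdx6 and Prdx1 fell by 0.47 and 0.46 on the log2 scale.

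**Figure D5:**
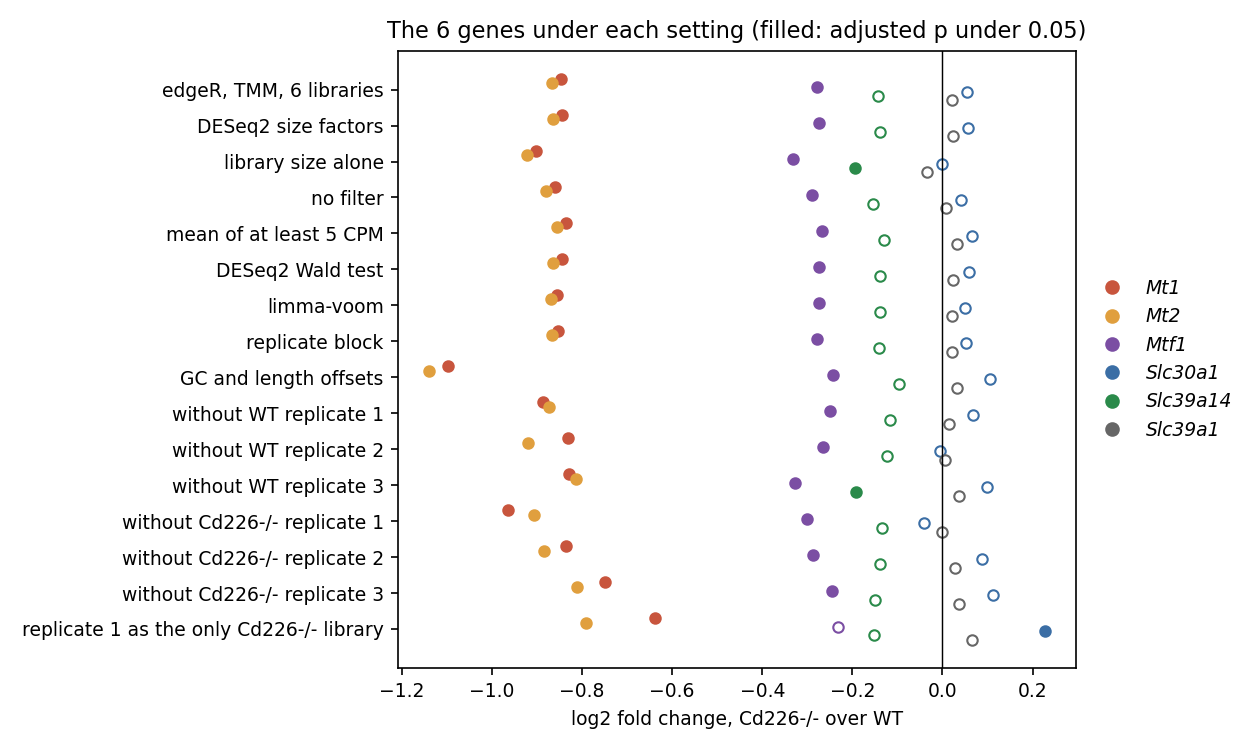
Log2 fold change (Cd226-/- over WT) of the 6 genes under each processing setting; filled symbols have an adjusted p under 0.05. Mt1 and Mt2 stay between -0.64 and -1.14 and filled in every row, Mtf1 is open in 1 row, Slc39a14 is filled in 2 rows, and Slc30a1 and Slc39a1 lie around 0, with Slc30a1 filled in 1 row.

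Across the 15 other settings the log2 fold change of Mt1 ranged from -1.10 to -0.64 (adjusted p from 3.37e-44 to 5.09e-04) and that of Mt2 from -1.14 to -0.79 (adjusted p from 7.07e-48 to 4.71e-07). The largest falls of both came from offsets for GC content and transcript length, a setting chosen after the data were seen. The lowest adjusted p of both came from edgeR without the count filter, where the log2 fold changes were -0.86 for Mt1 and -0.88 for Mt2. The shares of B-cell, stromal and hepatocyte markers moved with genotype or with replicates 2 and 3 of Cd226-/-; their part in the metallothionein difference was not tested.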

How the data were processed

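Trizol was used to extract RNA, per the labels' protocols. For the 6 libraries the authors deposited a single table of raw read counts by gene symbol. The submitters' processing notes name HISAT2 and GRCm38; counter, annotation and strandedness were not given in the sources used here. Each column was assigned by its name, and 0 columns were unused.

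Counts were tested with edgeR 4.0.16 in R 4.3.3 (filterByExpr, TMM, robust quasi-likelihood F-test, two-sided, genotype only), with Benjamini-Hochberg adjustment over 13215 genes. The SE was taken as the size of the log2 fold change over the root of the F statistic. The biological coefficient of variation was 6.75%. Single values per library were compared by exact permutation tests. Alternatives used DESeq2 1.42.0, limma 3.58.1, other scalings and filters, the replicate block, each library left out, replicate 1 as the only Cd226-/- library, an adjusted p under 0.01 and, added later, offsets for GC content and length (94.1% of tested genes had values). Positions and promoters are from RefSeq (GRCm38.p6; 5 of 6 genes had a promoter entry) and transcripts from GENCODE of the same build. The members and the gene lists were chosen with earlier results of these data known. Named genes were the 6 members, Cd226, up to 3 called genes of lowest p per list, all genes behind a count of 5 or fewer, and the 5 most like Mt1 and Mt2; the genes near Mt1, the overlapping and other listed genes were added after their values were seen. The steps were tested on simulated data. Replicate libraries differed by more than counting noise, over genes with 20 or more reads in both together, so all 6 were kept. Chi-square over degrees of freedom was 2.17 for Cd226-/- replicates 2 and 3. It was 3.79 to 7.76 for the other pairs within a genotype. The 95% intervals were built from the SE by the normal approximation and include the spread between libraries; floors cover counting error only.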

Additional observations from a re-analysis of the deposited data

How the results depend on the processing

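Mt1 and Mt2 kept their direction and their call in each of the 15 alternatives. Mtf1 kept both in 14; with replicate 1 as the only Cd226-/- library it did not pass (-0.23 on the log2 scale) and Slc30a1 passed as higher (0.23), which made 1 gene of the 6 higher in place of 0. The lone library is there assumed to vary like the WT libraries. Scaling by library size alone turned Slc30a1 to -0.00074 and Slc39a1 to -0.033, neither called, and Slc39a14 passed (-0.20). With each library left out in turn, Slc30a1 ranged from -0.041 to 0.11, Slc39a1 from -0.00069 to 0.037, and Slc39a14 from -0.19 to -0.12; of these only Slc39a14 without WT replicate 3 passed. Without WT replicate 2 Slc30a1 was -0.0058. Of the Slc39 genes 6 fell, but 4 did in the DESeq2 Wald test, 2 when replicate 1 alone stood for Cd226-/- and 9 with library size alone; of the Slc30 genes 1 fell, but 0 and 2 in the last pair of settings. At an adjusted p under 0.01, 1167 genes were lower in place of 1956. The replicate numbers did not pair the libraries: deviations of same-numbered libraries correlated at 0.011, -0.013 and 0.015. A replicate block left 2185 genes higher and 1952 lower and changed no call of the 6 (Mt1 -0.85, Mt2 -0.87, Mtf1 -0.28). The ratio of Mt2 to Mt1 differed by -0.080 to 0.061 (log2) with each library left out. The low counts of Slc39a8 and Mt3 limit their precision.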
